A study of Mus musculus with 2 samples.

Results

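The Gse1 and Fam92b locus on mouse chromosome 8 held 34 of the 6629 p300 peaks (0.513%) mapped by ChIP-seq in the dorsal cerebral wall, the tissue that gives rise to the neocortex. The locus was defined as the peaks with a midpoint from position 122300000 to position 123130000 of the mm9 assembly, and this stretch had been chosen by its measured density of p300 peaks, so the number and closeness of the peaks are described here and not tested. The genes Gse1, Fam92b, Gins2, Cotl1 and Usp10 were followed through it. The tissue came from embryonic day 14.5 Swiss Webster embryos, an outbred stock, with the medial structures cut away. It was a mixture of ventricular zone, subventricular zone and cortical plate cells, so no peak can be assigned to a cell type. There was 1 library precipitated with an antibody against p300 and 1 input library of unprecipitated chromatin from the same tissue sample, with no replicate. The peak list gives the position and running number of each peak and no height or read count, so the depth behind a single peak is unknown, no comparison of samples was possible, and no test was run. Peaks are named below by their running number, from peak 6109 to peak 6142.

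p300 is a histone acetyltransferase that has no sequence preference of its own and is brought to DNA by transcription factors, and its binding away from promoters is widely used to mark active enhancers. Enhancers in the developing brain are often scattered over long stretches around the gene they act on, within introns and in gene-poor sequence. Gse1 encodes a nuclear coiled-coil protein that associates with the CoREST repressor complex, and Fam92b, also called Cibar2, a BAR domain protein linked to cilia. Gins2 encodes a subunit of the GINS complex of the replicative helicase, Cotl1 an actin-binding protein of the coactosin family and Usp10 a ubiquitin-specific protease.

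The sequences below show what several of these peaks contain, and are read from the plus strand of NCBIM37, the C57BL/6J reference genome that is the mm9 assembly, not from the embryos assayed. Matches were sought in the middle 1000 bp of each peak. Stretches of 51 bases were centred on the matches to a long or paired motif, and the match is in capitals. The dimer motif of the Nfi factors, spelled TGGCNNNNNGCCA, was matched in 4 of the 34 peaks. This was 11.8%, against 6.32% of all peaks and 9.77% of other peaks of like GC content. All 4 are shown.
Peak 6114, chr8:122758561-122758611: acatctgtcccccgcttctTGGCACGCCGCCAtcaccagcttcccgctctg
Peak 6118, chr8:122824576-122824626: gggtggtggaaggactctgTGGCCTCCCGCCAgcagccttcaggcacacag
Peak 6140, chr8:123072260-123072310: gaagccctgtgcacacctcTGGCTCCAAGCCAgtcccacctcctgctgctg
Peak 6141, chr8:123081847-123081897: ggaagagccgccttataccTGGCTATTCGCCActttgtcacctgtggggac

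The Rfx dimer, the motif of the RFX factors, was matched in the middle 1000 bp of 2 peaks. This was 5.88%, against 3.41% of all peaks and 5.64% of other peaks of like GC content. When the whole of each locus peak was searched, the share was 8.82%, and only the matches in the middle are shown. Peak 6112 is the peak closest to the start of Fam92b, and peak 6133 lies 260.4 kb from that start.
Peak 6112, chr8:122704672-122704722: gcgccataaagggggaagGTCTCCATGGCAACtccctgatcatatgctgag
Peak 6133, chr8:122961387-122961437: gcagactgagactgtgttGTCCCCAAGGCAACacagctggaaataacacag

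The CTCF motif, bound by the insulator protein CTCF, was matched in 2 peaks. This was 5.88%, against 2.56% of all peaks and 3.38% of other peaks of like GC content. By the GENCODE vM1 gene models the 2 peaks lay between Fam92b and Gse1, as did 25 of the 34 peaks.
Peak 6118, chr8:122824928-122824978: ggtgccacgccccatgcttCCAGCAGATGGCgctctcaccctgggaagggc
Peak 6122, chr8:122843577-122843627: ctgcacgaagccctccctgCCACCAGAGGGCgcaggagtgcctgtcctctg

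The next 3 stretches are from the peaks richest in short motifs, and the capitals again mark the matches. Peak 6127 had the most matches to 3 kinds of E-box, the 6-base motif of the basic helix-loop-helix factors (CATCTG, the palindromic form CAGCTG and the variant CAGGTG, searched on either strand). Peak 6120 had the most matches to CAGGTG and to TGACAG, the motif of the Meis homeodomain factors, counted together, and in 1 place these overlapped by 2 bases. Peak 6135 had the most matches to TAATTA, the core of many homeodomain sites.
Peak 6127, chr8:122923609-122923908: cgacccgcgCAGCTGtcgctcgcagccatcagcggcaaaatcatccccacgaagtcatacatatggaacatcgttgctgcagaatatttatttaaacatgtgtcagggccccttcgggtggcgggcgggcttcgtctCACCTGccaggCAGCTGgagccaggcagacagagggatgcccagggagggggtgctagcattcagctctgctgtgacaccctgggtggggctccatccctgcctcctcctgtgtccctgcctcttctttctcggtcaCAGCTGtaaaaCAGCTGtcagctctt
Peak 6120, chr8:122830976-122831275: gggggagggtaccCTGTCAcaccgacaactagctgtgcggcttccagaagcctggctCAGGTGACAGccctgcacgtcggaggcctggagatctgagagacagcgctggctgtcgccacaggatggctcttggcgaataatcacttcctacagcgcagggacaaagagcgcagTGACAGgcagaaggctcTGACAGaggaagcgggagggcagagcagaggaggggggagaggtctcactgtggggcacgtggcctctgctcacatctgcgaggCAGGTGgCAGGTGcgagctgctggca
Peak 6135, chr8:122973809-122974108: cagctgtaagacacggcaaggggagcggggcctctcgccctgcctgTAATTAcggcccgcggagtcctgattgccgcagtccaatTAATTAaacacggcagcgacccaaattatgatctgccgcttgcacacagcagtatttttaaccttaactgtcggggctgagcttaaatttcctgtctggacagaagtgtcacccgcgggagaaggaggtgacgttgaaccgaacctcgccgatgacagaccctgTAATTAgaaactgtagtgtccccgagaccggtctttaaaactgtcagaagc

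The last stretch is from peak 6137, with E-boxes and TAATTA in capitals. By the GENCODE vM1 gene models this is the peak inside Gse1 that lies nearest to its first start site.
Peak 6137, chr8:123029615-123029814: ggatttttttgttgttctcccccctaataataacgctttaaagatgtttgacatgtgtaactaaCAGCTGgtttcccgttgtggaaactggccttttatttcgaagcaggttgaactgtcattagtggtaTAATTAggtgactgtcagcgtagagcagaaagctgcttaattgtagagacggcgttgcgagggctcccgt

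By the GENCODE vM1 gene models, the peaks were concentrated in the gene-poor stretch between Fam92b and Gse1. RefSeq models, described further below, place at least 13 of the peaks in this stretch inside Gse1. From the start of Fam92b (ENSMUSG00000042269, minus strand, chr8:122690297-122701369) to the first start of Gse1 (ENSMUSG00000031822, plus strand, chr8:123012766-123105290) there were 25 peaks in 311.4 kb, which is 8.03 per 100 kb. Within the 92.5 kb of the Gse1 body there were 5 peaks, or 5.404 per 100 kb. By contrast, the 401.4 kb from the lower limit of the window to the start of Fam92b, which hold Cotl1 and Usp10, had 3 peaks, or 0.747 per 100 kb. A single peak lay in the 24.7 kb above the end of Gse1. The mean over chromosome 8 was 0.309 peaks per 100 kb and over all chromosomes 0.259. Peaks covered 9.57% of the bases between the starts of Fam92b and Gse1 and 7.68% of the Gse1 body, against 0.345% of chromosome 8.

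**Figure D1:**
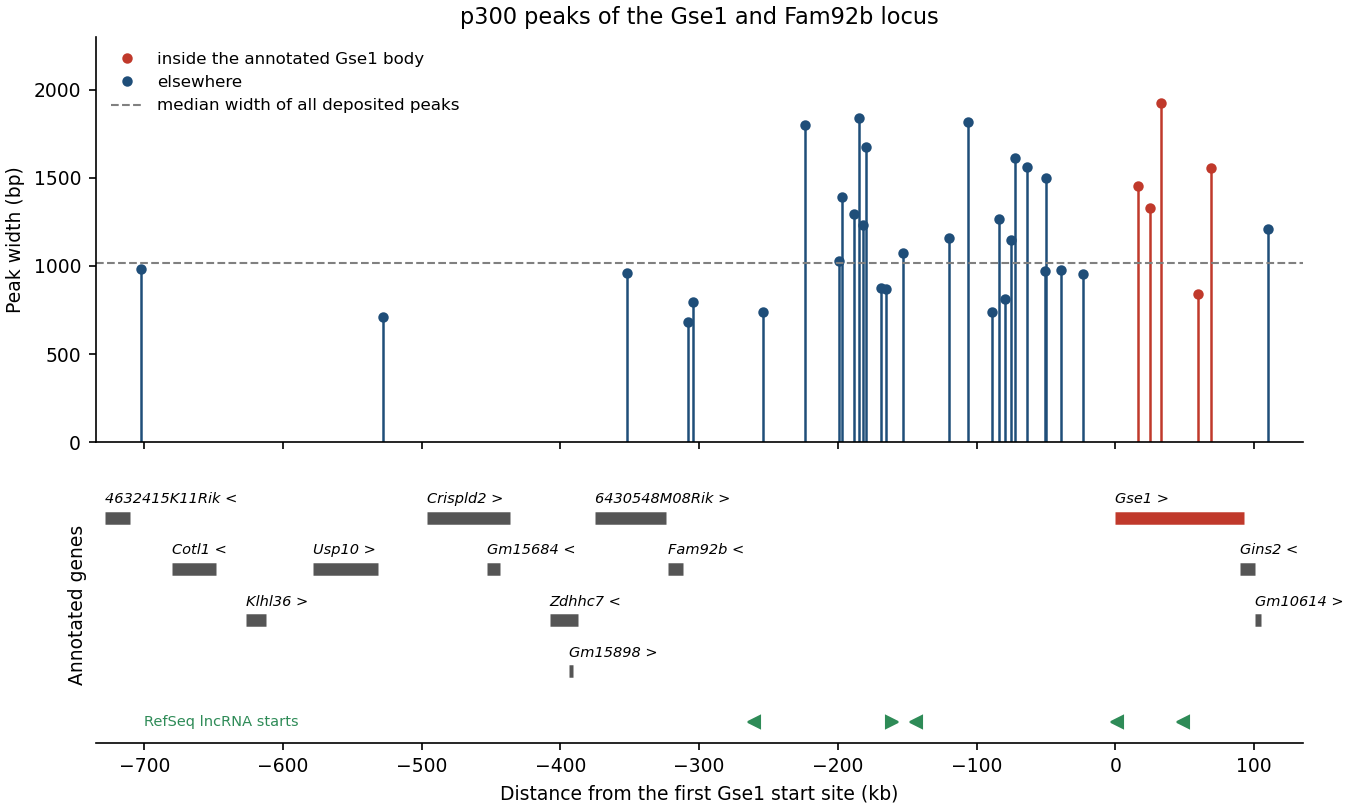
Position of the 34 p300 peaks along the locus, as distance of each midpoint from the first start site of Gse1 (kb, horizontal axis) against peak width (bp, vertical axis), with annotated genes as bars below, arrowheads for their strand and green triangles for the start sites of long noncoding RNAs that RefSeq adds. The readthrough gene Gm20388 is not drawn. By the GENCODE vM1 gene models drawn, 25 of the 34 peaks lie between Fam92b and Gse1 and 5, in red, inside Gse1. The bodies of Cotl1, Usp10, Fam92b and Gins2 hold none.

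The limits of the window fall in wide gaps of the peak list. The first peak inside, peak 6109 (chr8:122309659-122310640), lay 10.1 kb above the lower limit, and its neighbour outside, peak 6108 (chr8:121983667-121984203, 537 bp wide), was 326.2 kb away from it. The last peak inside, peak 6142 (chr8:123122063-123123274), lay 7.33 kb below the upper limit, and peak 6143 (chr8:123906378-123907624, 1247 bp wide) followed after 784.3 kb. Moving either limit within these gaps would not change the members.

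The 3 peaks below Fam92b stood alone. Peak 6109, 982 bp wide, was 7.83 kb from the start of 4632415K11Rik and 54.3 kb from that of Cotl1 (ENSMUSG00000031827, minus strand, chr8:122333125-122364479). Peak 6110 (chr8:122484257-122484965, 709 bp) followed 174.5 kb later, 50.4 kb from the start of Usp10 (ENSMUSG00000031826, plus strand, chr8:122434260-122481460) and 31.8 kb from that of Crispld2, a secreted cysteine-rich protein. Peak 6111 (chr8:122660265-122661225, 961 bp) came after the longest distance of the locus, 176.1 kb, and lay inside the gene 6430548M08Rik. All 3 were narrower than the median peak of the whole list, 1017 bp.

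Close beside Fam92b lay the narrowest peak of the locus and a close neighbour of it. Peak 6112 (chr8:122704285-122704966) was 682 bp wide and its midpoint was 3.26 kb from the Fam92b start, not far outside the 2.5 kb around start sites from which the authors removed peaks. Peak 6113 (chr8:122708049-122708841, 793 bp) was 3.82 kb farther on. After 50.2 kb came peak 6114 (chr8:122758231-122758969, 739 bp), and after a further 30.5 kb peak 6115 (chr8:122788151-122789951), which was 1801 bp wide and among the widest 10% of all peaks.

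A first cluster of 8 peaks ran from 199.0 to 165.6 kb below Gse1. Peaks 6116 (chr8:122813271-122814298, 1028 bp) and 6117 (chr8:122815419-122816808, 1390 bp) were 2.33 kb apart. Peaks 6118, 6119, 6120 and 6121, with widths of 1294, 1838, 1234 and 1673 bp, lay within 9.78 kb (chr8:122824136-122833915), and their midpoints were 3.07, 3.33 and 1.89 kb apart. Peaks 6122 (876 bp) and 6123 (869 bp) closed the cluster 3.53 kb apart (chr8:122843185-122847585). The next 3 peaks were 12.7 to 33.1 kb from their neighbours. These were peak 6124 (chr8:122859319-122860389, 1071 bp), peak 6125 (chr8:122892359-122893516, 1158 bp) and peak 6126 (chr8:122905582-122907399, 1818 bp).

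A second cluster ran from 89.2 to 49.6 kb below Gse1. Peaks 6127 to 6131, with widths of 739, 1267, 814, 1147 and 1611 bp, formed the largest group of the locus, 5 peaks in 18.4 kb (chr8:122923210-122941608). Peak 6132 (chr8:122948429-122949992, 1564 bp) stood 8.41 kb above them. Peaks 6133 (chr8:122961303-122962275, 973 bp) and 6134 (chr8:122962442-122963939, 1498 bp) were the closest neighbours, with midpoints 1.402 kb apart and 166 bp of sequence between their edges. Peaks 6135 (chr8:122973297-122974274, 978 bp) and 6136 (chr8:122989279-122990235, 957 bp) came last before Gse1, and the midpoint of peak 6136 was 23.0 kb below its first start site.

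The 5 peaks inside Gse1 by the GENCODE vM1 gene models were all intronic. Peak 6137 (chr8:123028708-123030159, 1452 bp), peak 6138 (chr8:123037449-123038776, 1328 bp), peak 6139 (chr8:123044476-123046399, 1924 bp) and peak 6140 (chr8:123071877-123072719, 843 bp) lay in the first intron of the transcript that begins at the first start site, an intron of 64.4 kb. Peak 6141 (chr8:123081212-123082767, 1556 bp) lay in the second intron, of 8.82 kb. Peak 6139 was the widest of the locus, at percentile 94.9 of all peaks. Gse1 has 6 annotated start sites. Peak 6137 was 16.7 kb above the first of them, peak 6140 was 11.0 to 12.5 kb from the 3 starts in the middle of the gene, and peak 6141 was 13.2 kb from each of the last pair. Of the forms starting at the middle sites, the first intron held peak 6140 alone. Peak 6142 (1212 bp) was past the end of Gse1, 9.46 kb from the start of Gins2 (ENSMUSG00000031821, minus strand, chr8:123102533-123113204) and 9.24 kb from that of the noncoding gene Gm10614.

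Neighbouring midpoints in the locus were a median of 10.5 kb apart (quartiles 3.82 and 26.9 kb), against 128.1 kb over the 6609 distances between neighbours in the whole list. Closeness is what the stretch was chosen for, so these are descriptions. Of the 33 distances, 16 were under 10 kb (48.5%), where 11.5% of all distances were, and 10 were under 5 kb (30.3%, against 6.40% of all). The distances were uneven. When peaks with under 5 kb between their edges were joined, 17 of the 34 peaks fell into 6 groups of 2 to 5 peaks and the other 17 stood alone.

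**Figure D2:**
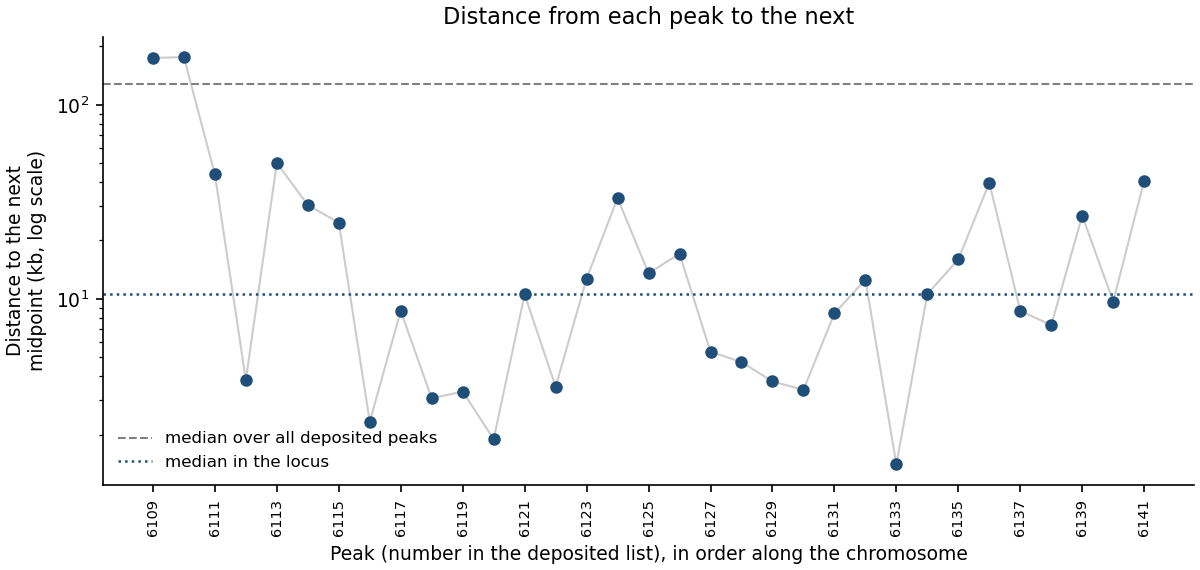
Distance from each peak to the next (kb, log scale, vertical axis) for the 33 pairs of neighbouring peaks in their order along the chromosome (horizontal axis), with the median of the locus (10.5 kb, dotted) and of all deposited peaks (128.1 kb, dashed). The 2 distances above the dashed line are those on either side of peak 6110, and most of the lowest points fall in 2 runs, from peak 6116 to peak 6122 and from peak 6127 to peak 6133.

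The same was measured in the other dense stretches of the list. The 5 stretches of 1 Mb with the most peaks were named by genes in them: Mn1, a transcriptional co-regulator, with the lens crystallin gene Cryba4 (39 peaks), Gse1 and Fam92b (34), Auts2, a gene of neuronal development (29), the zinc finger gene Zfp608 (28) and Nfib, which encodes an Nfi factor (26). The median distance between neighbours was 14.7 kb at Mn1 and Cryba4 and 25.4, 28.7 and 27.6 kb at Auts2, Zfp608 and Nfib. The Gse1 and Fam92b stretch thus had the shortest median distance of the 5, although it had fewer peaks than the stretch at Mn1 and Cryba4.

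The peaks of the locus ranged in width from 682 bp (peak 6112) to 1924 bp (peak 6139), with a median of 1152.5 bp and quartiles of 896 and 1486.5 bp. Over all 6629 peaks the median was 1017 bp, the quartiles were 860 and 1260 bp and the range was 367 to 5243 bp. At the locus 20 of 34 peaks (58.8%) reached the median width of all peaks, as 50.1% of all peaks do. Among the widest 10% of all peaks there were 5, namely 6115, 6119, 6121, 6126 and 6139. The 4 narrowest were 6112, 6110, 6114 and 6127, and the peaks inside Gse1 had a median width of 1452 bp. Median widths in the other dense stretches were 1063 bp at Mn1 and Cryba4, 1273 bp at Auts2, 1412 bp at Zfp608 and 1151 bp at Nfib.

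In base composition the peaks of the locus stood at the GC-rich end of the list. GC content ranged from 50.3% in peak 6112 to 60.8% in peak 6127, with a median of 57.1% (quartiles 55.3% and 58.5%), against a median of 45.2% (quartiles 40.6% and 50%) over all peaks. All 34 peaks were above the median of the whole list, and 31 were among its most GC-rich 10%. The exceptions were peak 6111 (52.1%), peak 6112 and peak 6128 (53.0%). The other dense stretches had medians of 53.1% at Mn1 and Cryba4, 45.0% at Auts2, 44.2% at Nfib and 40.9% at Zfp608. CpG dinucleotides were depleted, as in most of the genome. The ratio of observed to expected CpG had a median of 0.257 (0.228 over all peaks) and was highest in peak 6142, at 0.533, and in peak 6127, at 0.522.

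The sequence around the peaks was itself GC-rich. The whole stretch from the first to the last peak had a GC content of 52.4%, the stretch between the starts of Fam92b and Gse1 had 53.7%, and the 500 kb below and above the locus had 50.8% and 51.3%. Between the first and the last peak, 739 windows of 1000 bp touched no peak, and their GC content had a median of 52.4% (range 35.2 to 74.9%). The middle 1000 bp of the 34 peaks had a median of 57.4% (51.3 to 60.3%), and 68 of the 739 windows without a peak (9.20%) reached that median. Over all 1000-bp windows of chromosome 8 the median was 42.2%. The part of GC content in the read coverage and in the calling of these peaks was not tested.

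**Figure D3:**
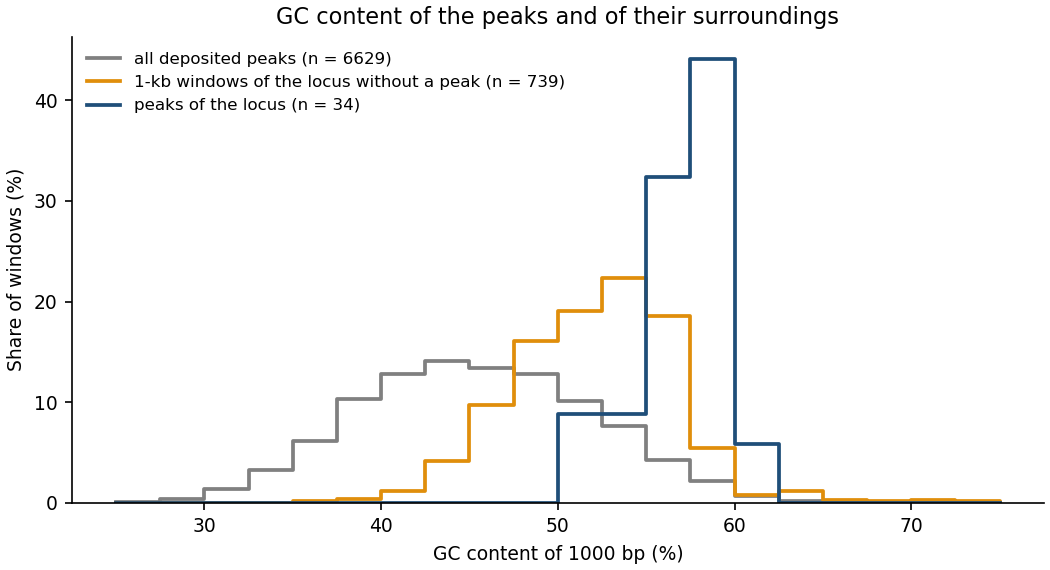
GC content of 1000 bp (%, horizontal axis, in steps of 2.5 percentage points) for the 34 peaks of the locus, the 739 windows between them without a peak and all 6629 deposited peaks, each as the share of its own set (%, vertical axis). The peaks of the locus have a median of 57.4%, above the 52.4% of the windows around them and the 45.2% of all peaks.

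Motif matches were counted on both strands in the middle 1000 bp of every peak, with 15 motifs of factors known in the developing cortex or at enhancers in general. A match is a run of letters in the reference and no evidence of binding. In the 14 peaks narrower than 1000 bp the counted sequence reached past the edges of the peak. In the wider peaks the outer parts were not counted, so a motif called absent can still lie there. Shares in the middle 500 bp are given for the locus peaks only. A shorter sequence can only lower a share, so these are not comparable with the 1000-bp shares of the other sets. Intervals are exact (Clopper-Pearson, 95%) and cover counting error alone. Because base composition alone changes how often letters recur, each share stands beside that of all 6629 peaks and, for most motifs, beside that of the 266 other peaks whose middle 1000 bp had a GC content between the quartiles of the locus peaks (55.7 to 58.7%). That comparison and the one with the windows without a peak were added after the data had been seen.

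E-boxes were the commonest matches. Every one of the 34 peaks held at least 1 of the 3 kinds (100%, 95% interval 89.7 to 100%), as did 92.8% of all peaks and 96.6% of the peaks of like GC content. In their middle 1000 bp the locus peaks held 165 E-boxes, with a mean of 4.85 ± 2.27 (SD over the 34 peaks). The number ran from 1 in peaks 6110, 6134, 6136 and 6137 to 10 in peak 6127. The mean was 2.92 over all peaks and 4.20 over the peaks of like GC content. CATCTG, the E-box preferred by Neurod and Neurog proteins, was present in 26 of 34 peaks (76.5%, 95% interval 58.8 to 89.3%), against 72.5% of all peaks, 78.2% of those of like GC content and 64.1% of the windows of the locus without a peak. Peaks 6109 and 6114 had the most, with 5 each. CATCTG was absent from the middle 1000 bp of peaks 6110, 6122, 6123, 6125, 6135, 6136, 6137 and 6138. CAGCTG, the palindromic E-box of many helix-loop-helix factors, was present in 25 peaks (73.5%), against 53.7% of all peaks and 74.8% of those of like GC content, and reached 5 matches in peak 6131. In the middle 500 bp alone its share of the locus peaks was 47.1%, with no like value for the other sets.

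CAGGTG, the E-box of Zeb and Snail repressors and of E proteins, was present in 28 of 34 peaks (82.4%, 95% interval 65.5 to 93.2%), against 48.5% of all peaks. It was found in 66.2% of the peaks of like GC content and in 68.2% of the windows of the locus without a peak. The locus peaks held 60 matches, 1.76 per peak, where all peaks averaged 0.785 and those of like GC content 1.19. Peaks 6120, 6127 and 6141 had 4 each. The 6 peaks without it in their middle 1000 bp were 6110, 6112, 6114, 6123, 6134 and 6137. When the whole of each peak was searched, the share at the locus was 88.2%. Of the 6, only peaks 6134 and 6137 are wider than 1000 bp and have outer parts that were not counted. TGACAG, the Meis motif, was likewise present in 26 of 34 peaks (76.5%, 95% interval 58.8 to 89.3%), against 62.2% of all peaks, 59.4% of those of like GC content and 60.5% of the windows without a peak. Its 54 matches gave 1.59 per peak, against 1.02 over all peaks and 0.936 over those of like GC content, with 6 in peak 6120, 6 in peak 6140 and 4 in peaks 6119 and 6137.

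The AT-rich motifs were matched in fewer of these peaks than in the whole list. TAATTA was present in 9 of 34 (26.5%, 95% interval 12.9 to 44.4%), against 45.3% of all peaks, 21.1% of those of like GC content and 11.0% of the windows of the locus without a peak. These were peaks 6119, 6124, 6127, 6132, 6133, 6135, 6137, 6138 and 6139. By the GENCODE vM1 gene models, 6 of the 25 peaks between Fam92b and Gse1 and 3 of the 5 inside Gse1 had the motif. In the middle 500 bp alone the share of the locus peaks was 11.8%, with no like value for the other sets. AACAAT, the motif of the Sox factors, was present in 5 of 34 peaks (14.7%, 95% interval 4.95 to 31.1%), against 46.5% of all peaks, 21.4% of those of like GC content and 24.2% of the windows without a peak. ATGCAAAT, the octamer of the POU factors, was matched in peak 6139 alone (2.94%, and 0 in the middle 500 bp), against 11.8% of all peaks and 7.52% of those of like GC content. The Hox dimer, which may contain TAATTA, was matched in peak 6142 alone (2.94%), against 11.3% of all peaks and 3.38% of those of like GC content. CATCTG and TAATTA occurred together in 6 of 34 peaks (17.6%), against 31.8% of all peaks and 14.7% of those of like GC content.

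**Figure D4:**
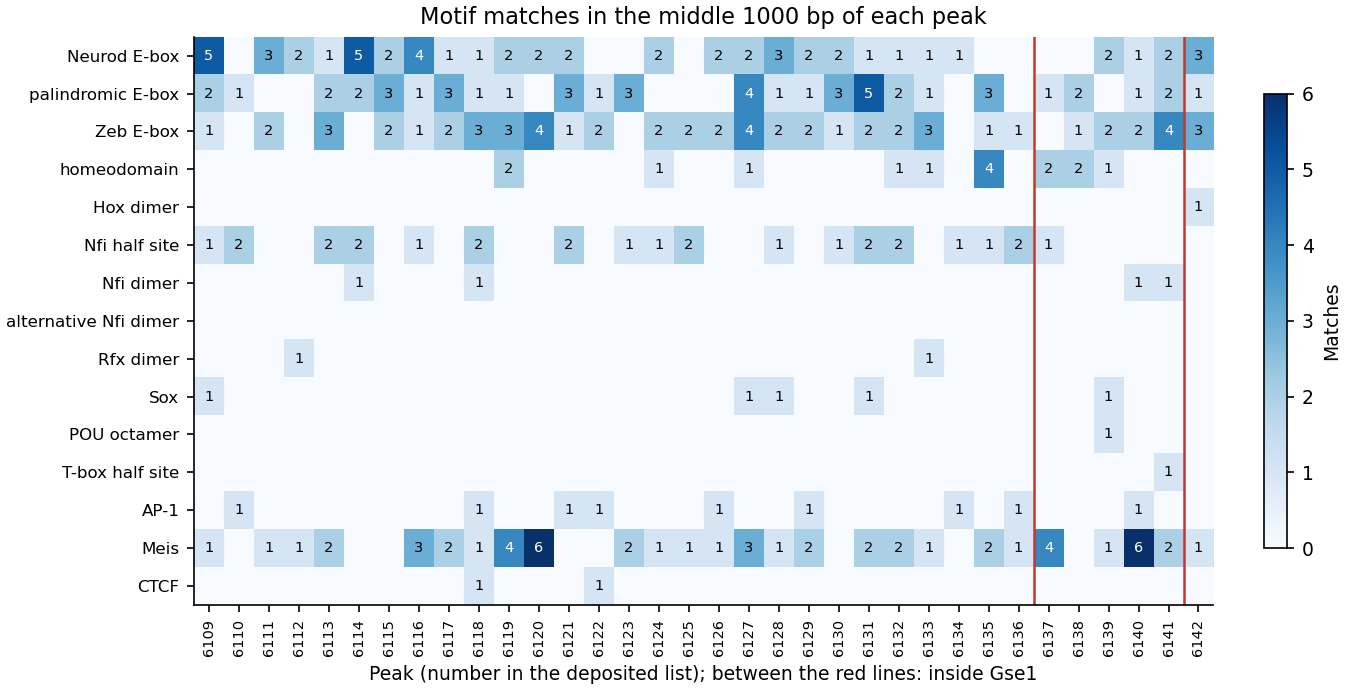
Number of matches to 15 motifs (rows) in the middle 1000 bp of each of the 34 peaks (columns, in order along the chromosome, with the peaks inside Gse1 between the red lines), shaded from 0 to 6 matches with blank cells for 0. The 3 E-box rows and the Meis row are filled along most of the locus, while homeodomain matches begin at peak 6119 and each of the dimer motifs has matches in 0 to 4 peaks.

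TTGGCA, the single site of the Nfi factors, was present in 18 of 34 peaks (52.9%), against 58.5% of all peaks and 54.5% of those of like GC content, and in 32.4% when the middle 500 bp alone was searched. The Nfi dimer was matched in 4 (11.8%, 95% interval 3.30 to 27.5%), against 6.32% of all peaks, 9.77% of those of like GC content and 1.56% of the 1000-bp windows of chromosome 8. Those in peaks 6114, 6118, 6140 and 6141, printed above, lay at -14, -182, -13 and -118 bp from the midpoint of their peak. The alternative Nfi dimer, TGCCANNNTGGCA, was matched in 0 of 34 peaks and in 0.377% of all peaks. A count of 0 in 34 allows a share of up to 8.82% if 3 counts are taken as the limit, and the upper bound of the exact 95% interval is 10.3%. Among the other motifs, the Rfx dimer was matched in 2 peaks (5.88%, against 3.41% of all and 5.64% of those of like GC content). These matches lay at 71 bp from the midpoint of peak 6112 and at -377 bp from that of peak 6133. Searched over the whole of each peak, its share at the locus was 8.82%. The CTCF motif was matched in 2 peaks (5.88%, 95% interval 0.72 to 19.7%, against 2.56% of all and 3.38% of those of like GC content). The matches lay at 170 bp from the midpoint of peak 6118 and at -21 bp from that of peak 6122. TGANTCA, the AP-1 motif, was present in 9 peaks (26.5%, against 27.1% of all and 17.7% of those of like GC content, and 11.8% in the middle 500 bp). AGGTGTGA, the T-box site bound by factors such as Tbr1 and Eomes, was matched in peak 6141 alone (2.94%, against 4.95% of all and 5.64% of those of like GC content, and 0 in the middle 500 bp), and its first letters can overlap CAGGTG. At least 1 of 6 motifs, namely the E-box CATCTG, the homeodomain motif TAATTA and the Hox, Rfx and both Nfi dimers, was present in 29 of 34 peaks (85.3%), against 88.4% of all. These 6 follow motifs named in the study, but were searched here as consensus letters and not with its position weight matrices, so the shares cannot be set beside its own.

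**Figure D5:**
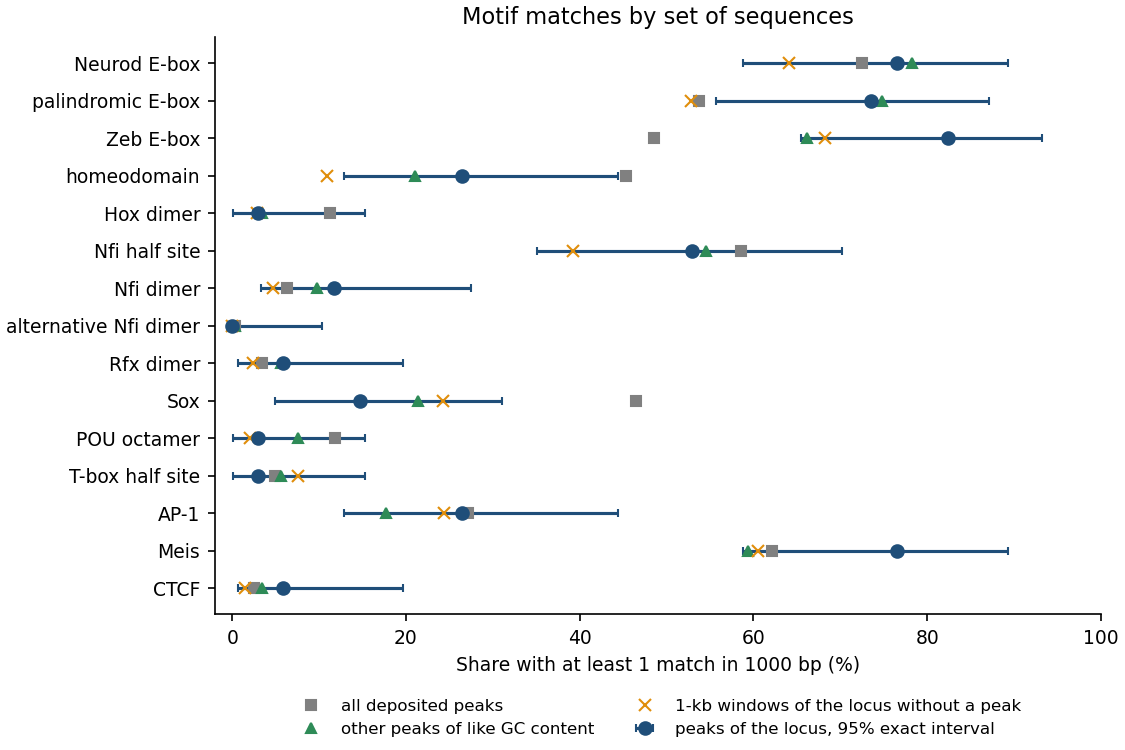
Share of sequences of 1000 bp with at least 1 match to each motif (%, horizontal axis) for the 34 peaks of the locus (circles, with exact 95% intervals as bars), all 6629 peaks (squares), the 266 other peaks of like GC content (triangles) and the 739 windows of the locus without a peak (crosses). For most motifs the triangles lie nearer to the circles than the squares do. The circles of the Zeb E-box (82.4%), Meis (76.5%), Nfi dimer (11.8%), Rfx dimer (5.88%) and CTCF (5.88%) lie to the right of the other symbols in their rows. In these rows the bars cover every other symbol except the square of the Zeb E-box (48.5%). The bars show counting error alone, treat neighbouring peaks as independent and are no test between the sets.

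The peaks differed in how many matches their middle 1000 bp held. Summed over the 15 motifs, peak 6127 had 15 matches and peak 6131 had 13, while peak 6134, only 166 bp from its neighbour, had 3. The counted part reached past the edges of peak 6127 (739 bp) and left out the outer parts of peak 6134 (1498 bp). Peak 6118 had matches to the most kinds, 8 of the 15, including both the Nfi dimer and the CTCF motif. The median was 5 kinds per peak at the locus and 5 over all peaks. The peaks were not copies of one another. Of the 561 pairs of locus peaks aligned with blastn at an expectation of 1e-05 or below, 2 pairs matched, over 146 bases at 67.8% identity (peaks 6128 and 6142) and over 50 bases at 80% identity (peaks 6139 and 6142).

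The study's rule gives each gene a core from 5 kb before to 1 kb after its start site and a regulatory domain that reaches outward until it meets the core of a neighbour, 1 Mb at most. By this rule the peaks between Fam92b and Gse1 belong to both genes, except peak 6112, which lies in the domain of Fam92b alone. Gse1 had 29 peaks in its domain and Fam92b 26, while Gins2 and Cotl1 had 1 each (peak 6142 and peak 6109) and Usp10 had 0. Over all genes, 16.7% had at least 1 peak in their domain. With 1 start site per gene, that of the transcript of longest coding sequence, the nearest was that of Gse1 for 16 peaks. It was that of Fam92b for 12 and Gins2 for 2, and 1 peak each was nearest to 4632415K11Rik, Crispld2, 6430548M08Rik and Gm10614. The 2 peaks counted for Gins2, 6140 and 6141, lie inside Gse1. They were 40.9 and 31.2 kb from Gins2 but 11.0 and 13.2 kb from other annotated starts of Gse1. The turn from Fam92b to Gse1 fell between peak 6123, 145.8 kb from Fam92b, and peak 6124, 152.9 kb from Gse1. The median distance of the locus peaks to the nearest start was 67.8 kb, against 43.3 kb over all peaks, an order that turned when RefSeq starts were added to the locus alone (23.6 kb).

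How these peaks are described depends on the gene models. No peak of the locus overlapped an annotated exon, but the authors had removed peaks at exons. In GENCODE vM1 a single transcript of the gene Gm20388 (ENSMUSG00000092329, plus strand, chr8:122434741-126869622) spans 4435 kb and covers 33 of the 34 peaks, leaving peak 6109 alone outside every annotated gene. Without Gm20388, 28 of 34 peaks (82.4%) lay outside annotated genes, against 55.0% of all peaks, 5 lay inside Gse1 and 1 inside 6430548M08Rik. RefSeq, whose table is on another assembly (GRCm38.p6) and was used for names and order only, places the long noncoding RNA A330074K22Rik between Fam92b and Gse1 and has 5 genes within the limits of Gse1, among them Gm32968 and Gm39264. Their promoter sequences matched NCBIM37 exactly once each, which put the start of A330074K22Rik at position 122752130 (minus strand), 6.47 kb from peak 6114, that of Gm32968 at position 122851577 (plus strand), 4.43 kb from peak 6123, and that of Gm39264 at position 122869154 (minus strand), 9.30 kb from peak 6124. By those models 13 further peaks, above the start of Gm32968, lie inside Gse1 and not in front of it, and a start of Gse1 lies between A330074K22Rik and Gm32968, among or beside the 10 peaks there. With the RefSeq starts that could be placed added, the domain of Gse1 held 12 peaks and that of Fam92b 3. The upstream start of Gse1 was not among those placed, so these values add noncoding starts without it and are not the RefSeq result for Gse1.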

How the data were processed

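One p300 ChIP-seq library and 1 input library, made from the same dissected E14.5 tissue, were sequenced by the authors, who aligned reads to mm9 with ELAND and called peaks over input with MACS. The submitters' notes name MACS 1.4. Their list was restricted to distal sites, at least 2.5 kb from any start site and off exons, with reads of doubtful placement filtered out. The deposited list holds chromosome, start, end and number of 6629 peaks, with no score. The input library was not analysed here. Positions and sequences were taken from NCBIM37 and genes from GENCODE vM1, with the start of the transcript of longest coding sequence for each gene. Motifs were searched as consensus letters on both strands. RefSeq promoter sequences (GRCm38.p6) were placed on NCBIM37 by exact match, and those of Cotl1 and Gins2 are not in the table used. Peaks were named if first, last, extreme in width, spacing, composition or motif matches, inside a member gene or nearest to its start, and the rest were described by position. The locus, genes and motifs were chosen with earlier results of these data known. Alternatives changed the peaks counted, the sequence searched, the gene set and the domains. Leaving out Gm20388 and adding RefSeq starts were chosen after the data were seen. Python 3.11.15 (numpy 2.4.6, scipy 1.17.1, pandas 2.3.3, matplotlib 3.10.9) and blastn 2.17.0 were used, and the motif search and domains were tested on simulated data.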

Additional observations from a re-analysis of the deposited data

How the results depend on the processing

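With 1 library there was no replicate to leave out and the depth behind each peak is unknown, so only definitions could be varied. Keeping the peaks not narrower than the overall median left 20. Joining peaks under 5 kb apart gave a median width of 1452 bp and a median distance of 21.4 kb between neighbours. In the middle 500 bp the median GC content was 59.7%. Chosen after the data were seen, leaving out Gm20388 put 28 peaks outside every gene and 1 in the domain of Usp10, and adding the RefSeq start sites that could be placed, which lack the upstream start of Gse1, gave a median distance to the nearest start of 23.6 kb, 12 peaks in the domain of Gse1 and 3 in that of Fam92b. Domains between protein-coding genes alone put 6 peaks in that of Gins2. In 27 other combinations of these results and settings the value kept within its spread or within 1.5 times the count. Of 30 alternative shares of single motifs, 6 moved beyond their interval or spread, all in the middle 500 bp: CAGCTG (47.1%), TAATTA (11.8%), TTGGCA (32.4%), AP-1 (11.8%), and the POU and T-box motifs (0 each). All 6 fell, and a shorter sequence can only lower a share. No paired analysis was possible because there is 1 library of each kind.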
